A study of Mus musculus with 12 samples.

Results

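Protein kinase A is the main kinase switched on by cyclic AMP. Measured here were 10 genes of its holoenzyme and anchors: the regulatory subunits Prkar1a, Prkar1b, Prkar2a and Prkar2b, the catalytic subunits Prkaca and Prkacb, and the anchoring proteins Akap6, Akap9, Akap11 and Akap12. They were taken by symbol from the 9112 genes present in both deposited count tables, and all 10 were found in both and passed the filter on low values in every comparison. The genes were picked with their pull-down against input values known, so those values are a description. Calls made for them in the fit over all genes are counted beside the share of all genes called, and nothing rests on them.

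All 12 libraries came from cultured dorsal root ganglion (DRG) neurons of male mice aged 3 to 6 months that were homozygous for the RiboTag allele (Rpl22HA/HA), which adds an HA epitope to a ribosomal protein only where Cre recombinase is active. One genotype carried Runx3-Cre (Runx3-Cre+), driven by a transcription factor gene of proprioceptive neurons, and the other did not (Runx3-Cre-), so that its pull-down is by design the background of the procedure. Neurons were cleared of myelin debris and most glia on a Percoll cushion, kept for 24 h in F12 medium with 10% serum, and pooled from 5 mice for each sample. RNA bound to ribosomes was pulled down with anti-HA antibody, and 10% of the lysate was kept as input, with 3 libraries each of Cre+ pull-down, Cre+ input, Cre- pull-down and Cre- input.

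The kinase at rest is a tetramer in which a pair of regulatory subunits holds a pair of catalytic subunits inactive, and cyclic AMP bound by the regulatory subunits frees the catalytic ones. Type I regulatory subunits (Prkar1a, Prkar1b) are found largely in the cytosol, whereas type II subunits (Prkar2a, Prkar2b) are held at membranes and the cytoskeleton by A-kinase anchoring proteins (AKAPs). In sensory neurons the pathway is known for sensitization to painful stimuli and for its part in axon growth.

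The 2 types differ at the short stretch by which a regulatory subunit blocks the catalytic site. In type II subunits it holds a serine that the kinase itself can phosphorylate, and in type I subunits it holds a residue that cannot be phosphorylated. The coding sequence of this stretch, read from GENCODE M21 transcripts (GRCm38), is shown for the 4 regulatory genes because it is what sets apart the types compared next. Capitals mark the codon of that residue.
Prkar1a: cgccgaggtGCTatcagtgctgaa
Prkar1b: cggcggggcGGTgtgagtgctgaa
Prkar2a: agacgagtaTCAgtctgtgcagaa
Prkar2b: aggcgtgccTCGgtctgtgcagaa
The Prkar1a stretch lies in exon 3 of 11, at chr11:109660107-109660130 on the plus strand, and the Prkar1b stretch in exon 3 of 11, at chr5:139108523-139108546 on the minus strand. Those of Prkar2a and Prkar2b are each split by an intron between exons 2 and 3, and span chr9:108714296-108716873 (plus strand) and chr12:31993773-32038634 (minus strand).

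The libraries held 8886308 to 18633365 counts, and the Cre+ pull-downs were the least alike, with correlations between libraries of 0.687 to 0.832 against at least 0.912 within the other groups. Runx3, the gene whose promoter drives Cre, went against the labels. Its normalized counts were 2.07 to 22.8 in the Cre+ pull-downs and 2.39 to 5.55 in their inputs (log2 fold change 1.55, FDR = 0.309), but 20.8 to 51.4 in the Cre- pull-downs and 1.90 to 4.70 in their inputs (log2 fold change 3.52, FDR = 0.000236). Of the proprioceptor markers, 6 of 6 were called higher in the Cre- pull-downs and 1 of 5 in the Cre+ pull-downs, the neurotrophin receptor gene Ntrk3 (log2 fold change 2.19, FDR = 0.025). Their summed level was 1251 to 1549 in the Cre- pull-downs, 210 to 292 in the Cre- inputs, 351 to 527 in the Cre+ pull-downs and 178 to 242 in the Cre+ inputs. Within the Cre+ sum, Ntrk3 went from a mean of 63.0 in the inputs to 287 in the pull-downs and Etv1 from 54.0 to 64.0, while Spp1 went from 94.3 to 48.7 (log2 fold change -0.95, FDR = 0.22). Every direction below therefore refers to libraries as labelled.

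In the libraries labelled Cre+, all 6 subunit genes had a negative log2 fold change between pull-down and input and all 4 anchors a positive one, although those of Prkar2a and Akap12 turned sign under other settings. A gene was called when it passed an FDR of 0.1 and a 2-fold change in edgeR's quasi-likelihood test over all genes. By this rule Akap6 and Akap9 were called higher, where 4.72% of the 8947 genes tested were, and Prkar1a lower, where 2.19% were. In the libraries labelled Cre-, Akap6 was called higher (6.01% of 11526 genes) and Prkar2b lower (5.83%). Single libraries decided these calls, though none of the fold changes behind them turned sign. In Cre+, those of Akap9 and Prkar1a were lost without Cre+ input replicate 1 or 3, and that of Akap6 without any 1 of the Cre+ inputs, without Cre+ pull-down replicate 3, or when scaled by library size alone. In Cre-, that of Akap6 was lost without Cre- input replicate 1 or when scaled by library size alone, and that of Prkar2b without Cre- pull-down replicate 2 or 3. Over the other settings, the Cre+ log2 fold change ran from 2.70 to 3.63 (Akap9), -1.92 to -1.40 (Prkar1a) and 0.97 to 1.67 (Akap6). In Cre- it ran from 0.94 to 1.33 (Akap6) and -1.58 to -0.86 (Prkar2b). Without Cre+ input replicate 1 or 3, only 7 and 4 of all genes were called higher, and 0 lower. The median log2 fold change of the 10 genes was -0.19 in Cre+ and 0.25 in Cre-, and that of all genes 0.08 and -0.04. Nothing is read from these counts and medians, since the genes were chosen on the same contrasts.

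**Figure D1:**
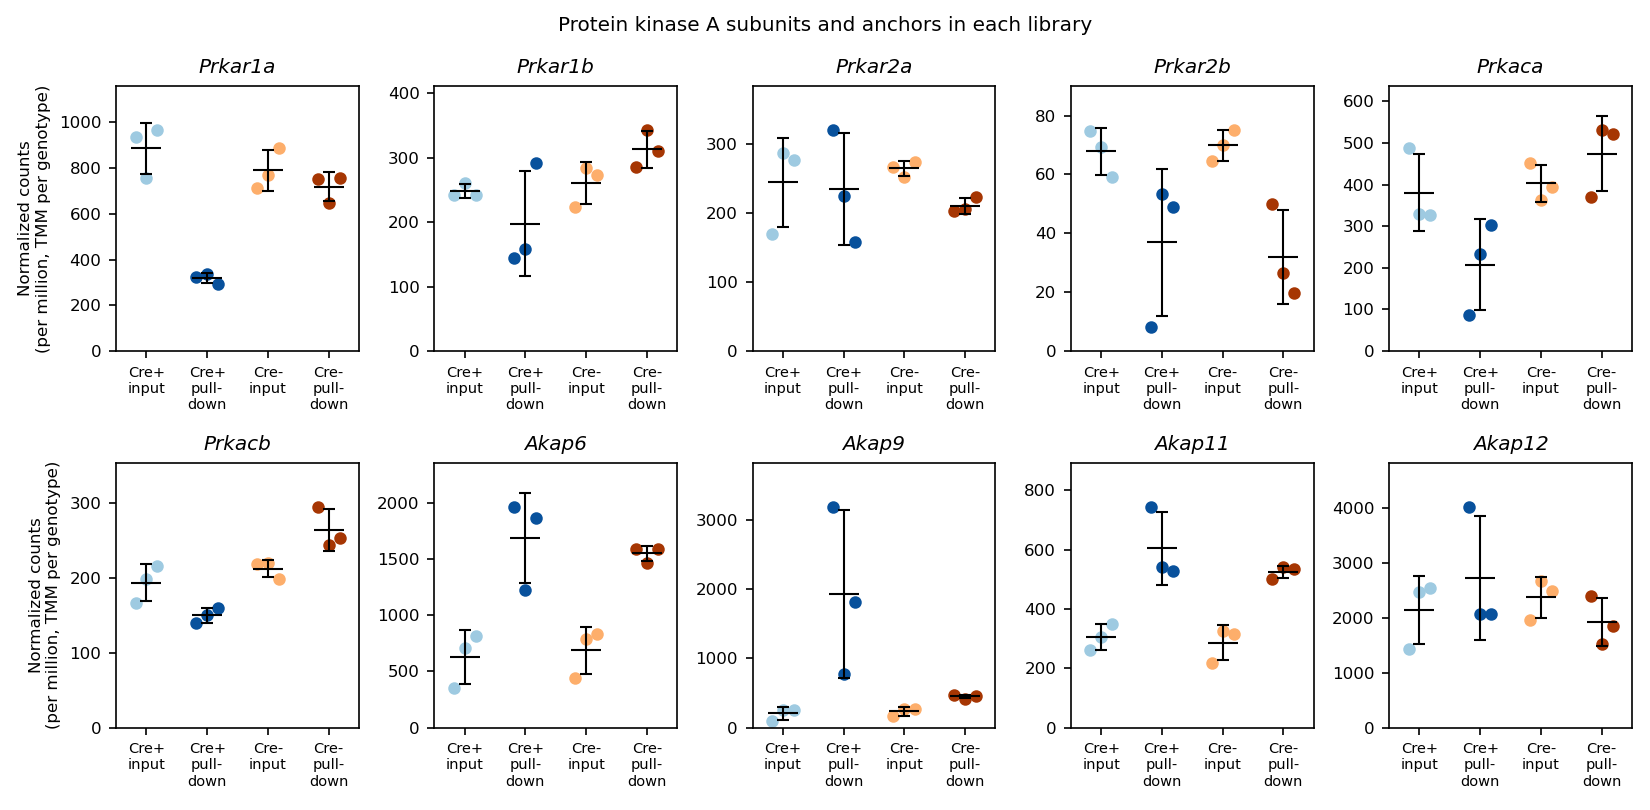
Normalized counts (CPM, scaled by the trimmed mean of M-values within each genotype) of the 10 genes in every library, with 1 point per library, a line at the mean and a bar of 1 SD (n = 3). The 3 Cre+ pull-downs of Prkar1a sit between 293 and 335, below every other library, and those of Akap9 between 769 and 3185, above every other library.

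Prkar1a (chr11:109649405-109669656), the most widely expressed regulatory subunit, had normalized counts of 935, 758 and 965 in the Cre+ inputs and 325, 335 and 293 in the Cre+ pull-downs. All 3 pull-downs lay far below all 3 inputs and close to each other. Its log2 fold change was -1.48 (standard error 0.23), a level 2.79-fold lower, which put it at percentile 7.35 of all genes. The Cre- inputs held 712, 770 and 885 and the Cre- pull-downs 750, 646 and 758. These groups overlapped, with a log2 fold change of -0.14 (standard error 0.15). The enrichment in Cre+ minus that in Cre- was -1.31 (standard error 0.24).

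Prkar1b (chr5:139017306-139150001), the type I subunit typical of brain and nerve tissue, did not follow Prkar1a. The Cre+ inputs held 242, 261 and 243 and the Cre+ pull-downs 144, 158 and 291, so that replicates 1 and 2 were lower than the inputs and replicate 3 higher. The log2 fold change was -0.33 (standard error 0.32). In Cre- it was 0.27 (standard error 0.16), from 224, 285 and 273 in the inputs to 286, 343 and 310 in the pull-downs. The pull-downs were above the inputs by a narrow margin, which closed when all 12 libraries were scaled together (278 in the lowest pull-down, 279 in the highest input). The gene shares 8.95% of its exon bases with Gm15672 on the same strand.

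Prkar2a (chr9:108689314-108750436), the widely expressed type II subunit, spread broadly in the Cre+ pull-downs, at 321, 226 and 159, around inputs of 170, 287 and 278. The log2 fold change of -0.06 (standard error 0.34) ran from -0.52 to 0.18 over the other settings and has no stable sign. In Cre- the inputs were 268, 253 and 275 and the pull-downs 203, 206 and 224, all of them lower, by -0.33 (standard error 0.14) on the log2 scale.

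Prkar2b (chr12:31958476-32061296), the type II subunit of neurons and fat, had the lowest counts of the 10 genes. In Cre+ the inputs held 74.9, 69.4 and 59.2 and the pull-downs 8.10, 53.5 and 49.1, and all 3 pull-downs were below the inputs. The fold change rested on pull-down replicate 1, with -0.88 (standard error 0.63) over all libraries and -0.37 without it. In Cre- the inputs held 64.5, 70.1 and 75.1 and the pull-downs 49.9, 26.5 and 19.6. All 3 were again lower, by -1.12 (standard error 0.30). Prkar2b was thus lower in the pull-down of both genotypes, and Prkar1a well below its inputs in the libraries labelled Cre+.

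Prkaca (chr8:83972993-83996443) encodes the main catalytic subunit. Its Cre+ inputs held 487, 328 and 328 and its Cre+ pull-downs 87.6, 232 and 302, all below the inputs, with replicate 1 standing far below the other two. The log2 fold change of -0.88 (standard error 0.42) became -0.47 without that library. The Cre- inputs held 452, 363 and 395 and the Cre- pull-downs 371, 531 and 522, which overlapped. The log2 fold change there was 0.23 (standard error 0.17), and -0.01 when scaled by library size alone. The difference of both enrichments was -1.07 (standard error 0.49).

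Prkacb (chr3:146729574-146812990) encodes the second catalytic subunit, which nerve cells make in several splice forms. The Cre+ inputs held 166, 199 and 216 and the pull-downs 140, 150 and 159, all lower. The Cre- inputs held 218, 220 and 199 and the pull-downs 295, 243 and 253, all higher. The log2 fold changes were -0.37 (standard error 0.27) and 0.31 (standard error 0.15), so the gene lay on opposite sides of its inputs in the 2 genotypes by small amounts.

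Non-overlapping groups were not rare in these tables. Of all genes tested, 15.5% had every Cre+ pull-down above every input and 17.9% below, and in Cre- the shares were 18.2% and 18.6%. Among the 10 genes, 3 were above (Akap6, Akap9, Akap11) and 4 below (Prkar1a, Prkar2b, Prkaca, Prkacb) in Cre+, and 5 above and 2 below in Cre-. With bulk RNA, fewer cells of a type and less RNA per cell cannot be told apart.

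Akap9 (chr5:3928054-4081310), a large scaffold of the centrosome and Golgi apparatus, showed the widest separation of the 10. The Cre+ inputs held 99.8, 254 and 258 and the Cre+ pull-downs 3185, 769 and 1811. Every pull-down was at least 769, yet the highest was several times the lowest. The log2 fold change was 3.24 (standard error 0.55), a level 9.42-fold higher and percentile 99.3 of all genes, and it was 2.70 without pull-down replicate 1. In Cre- the inputs held 165, 262 and 270 and the pull-downs 473, 418 and 456, also all higher, by 0.95 (standard error 0.19). The difference between the enrichments was 2.31 (standard error 0.60). The gene shares 0.778% of its exon bases with the antisense gene Cyp51.

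Akap6 (chr12:52699383-53155599), which anchors the kinase at the nuclear envelope of muscle cells and neurons, was higher in the pull-down of both genotypes by like amounts. In Cre+ the inputs held 353, 709 and 816 and the pull-downs 1964, 1225 and 1864. In Cre- the inputs held 445, 785 and 828 and the pull-downs 1592, 1467 and 1586. No pull-down overlapped an input, and the log2 fold changes were 1.43 (standard error 0.34) and 1.17 (standard error 0.21). The difference between them was 0.29 (standard error 0.42).

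Akap11 (chr14:78492246-78536808), an anchor that also binds glycogen synthase kinase 3, held 260, 305 and 350 in the Cre+ inputs and 744, 540 and 527 in the Cre+ pull-downs. The Cre- inputs held 218, 324 and 317 and the Cre- pull-downs 501, 540 and 533. It was higher in all 6 pull-downs, by 0.98 (standard error 0.26) and 0.87 (standard error 0.17), just under the 2-fold line in both genotypes. The difference of 0.14 (standard error 0.29) changed sign under library size scaling (-0.10).

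Akap12 (chr10:4266380-4359470), the gravin scaffold of the plasma membrane, had the highest counts of the 10 and no separation in either genotype. The Cre+ inputs held 1437, 2478 and 2548 and the pull-downs 4033, 2070 and 2078. The Cre- inputs held 1963, 2680 and 2501 and the pull-downs 2407, 1534 and 1853. The log2 fold changes were 0.34 (standard error 0.33), which became -0.13 when scaled by library size alone, and -0.30 (standard error 0.18).

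**Figure D2:**
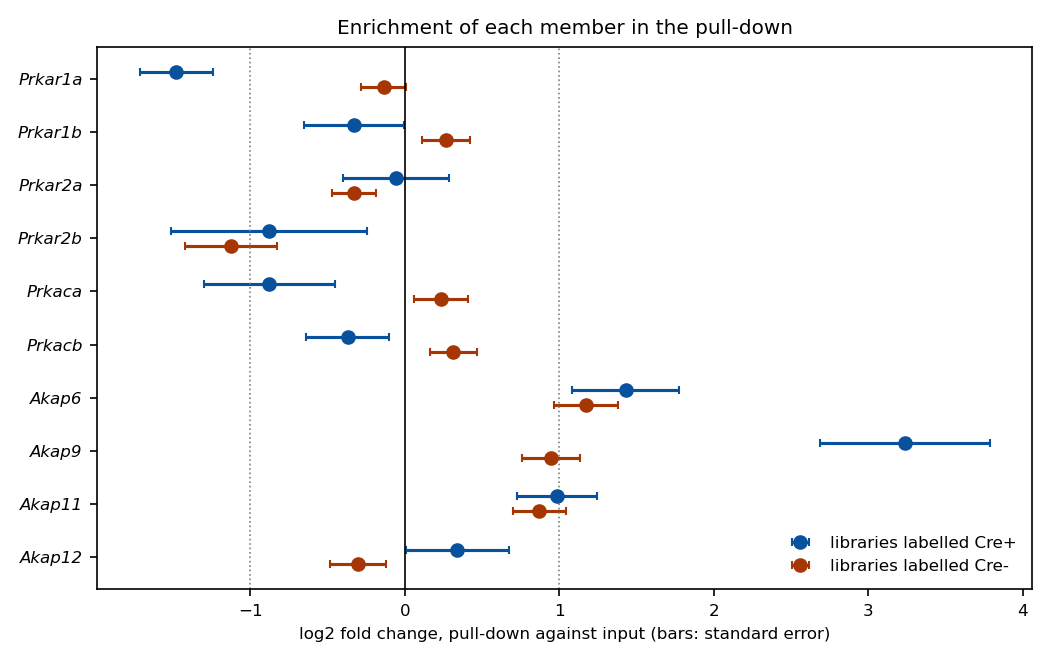
Log2 fold change between pull-down and input for each gene in the libraries labelled Cre+ (blue) and Cre- (brown), with bars of 1 standard error and dotted lines at a 2-fold change (log2 of 1). Akap6 and Akap11 lie together in both genotypes, whereas Prkar1a (-1.48 and -0.14) and Akap9 (3.24 and 0.95) lie apart.

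Some of the 10 genes lay close to the limit of the call. Akap6 in Cre- (1.17) and Prkar2b in Cre- (-1.12) were just past the 2-fold line, whereas Akap11 in Cre+ (0.98) and Akap9 in Cre- (0.95) were just short of it. Akap11 was called higher in Cre+ with DESeq2 and without Cre+ pull-down replicate 2 or 3. Akap9 was called higher in Cre- without Cre- input replicate 2 or 3.

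The inputs, which the choice of the genes did not use as a contrast, showed no called difference between genotypes. None of the 10 genes was called, nor was any of the 8954 genes tested by edgeR (0%). In that test 179 genes had an unadjusted p under 0.05, a smaller share than the 0.05 that evenly spread p-values give. DESeq2 called 1 gene. The largest differences among the 10, Cre+ against Cre-, were 0.24 for Prkar1a (standard error 0.16) and 0.17 for Akap11 (standard error 0.19). At the other end stood Akap9 with -0.12 (standard error 0.33). The FDR was 0.999 for each of the 10, and the Cre+ and Cre- inputs overlapped for each, where 3.77% of all genes had every Cre+ input above every Cre- input and 3.89% below. In simulated data with 200 changed genes above a floor of mean counts, 95% of 4-fold changes were called at this size. With far fewer changed genes the FDR limit is stricter, so this share need not hold here. Smaller changes in the starting RNA may not have been called.

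To compare genes with each other, counts scaled over all 12 libraries were divided by the mean length of each gene's transcripts. In the Cre+ inputs the levels per kilobase were 368 ± 106 (SD, n = 3) for Akap12 and 352 ± 42.4 for Prkar1a, which overlapped, and 215 ± 51.7 for Prkaca. Prkar1b followed with 100.1 ± 4.88, then Prkar2a with 83.1 ± 22.1, Akap6 with 66.8 ± 25.8, Prkacb with 49.0 ± 6.26 and Akap11 with 42.0 ± 6.08. Each of these 5 overlapped with the next, whereas Prkar2b (25.8 ± 3.13) and Akap9 (16.1 ± 7.13) lay below them and apart from each other. The Cre- inputs gave the same order, with Akap12 (387 ± 59.5) and Prkar1a (298 ± 33.8) again overlapping at the top, and Akap9 (17.5 ± 4.38) last.

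In the Cre+ pull-downs the order was another one. Akap12 stayed first with 468 ± 186 per kilobase, but Akap6 (181 ± 41.2) and Akap9 (152 ± 93.8) came next, ahead of Prkar1a (127 ± 8.83) and Prkaca (118 ± 63.3). The ranges of Akap6 and Akap9 overlapped, as did those of Akap9, Prkar1a and Prkaca. Thus Akap9 was last of the 10 genes in the Cre+ inputs and, by its mean, just below Akap6 in the Cre+ pull-downs, where its range was 62.0 to 249. In the Cre- pull-downs it stood ninth, with 33.1 ± 2.18. With the longest transcript in place of the mean length, Akap9 was second in the Cre+ pull-downs and kept the tenth place in both inputs, while the order in the middle of the list shifted.

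**Figure D3:**
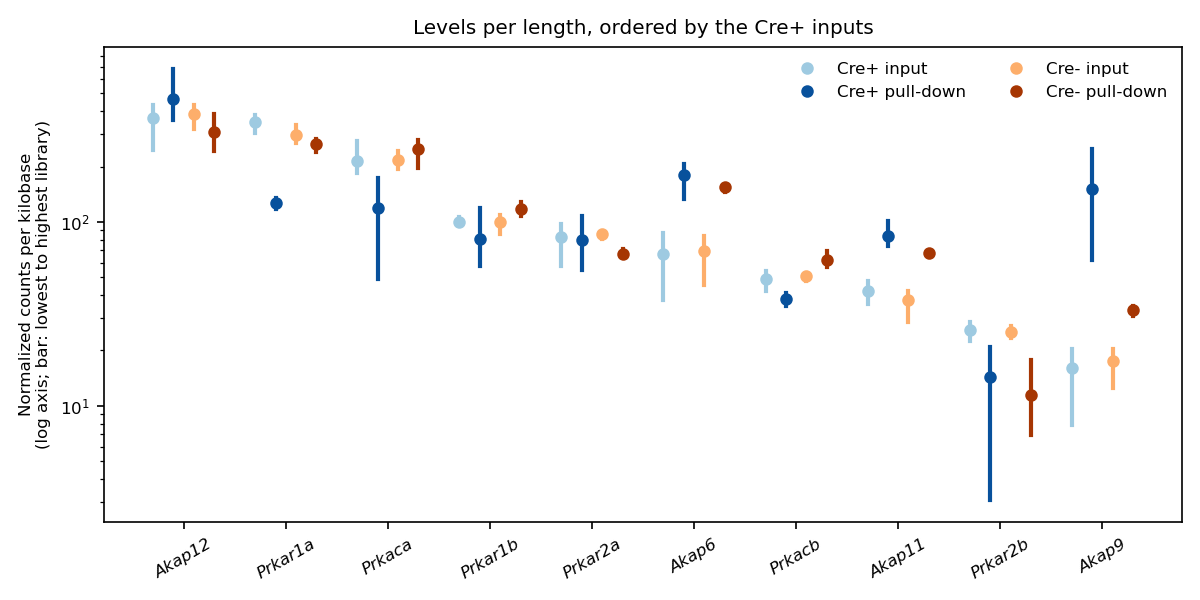
Normalized counts per kilobase of transcript on a log axis, with a point at the mean of 3 libraries and a bar from the lowest to the highest library, for the 4 groups. The genes are ordered by the Cre+ inputs, where Akap12 (368) is the highest and Akap9 (16.1) the lowest.

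The make-up of the regulatory pool was then taken as each gene's share of the summed level per kilobase of the 4 regulatory genes. Prkar1a made up 66.9%, 56.8% and 64.1% of the pool in the Cre+ inputs and 43.2%, 45.3% and 38.0% in the Cre+ pull-downs, a mean of 62.6% ± 5.21 (SD, n = 3) against 42.2% ± 3.76, without overlap. In Cre- the mean was 58.5% ± 1.59 in the inputs and 57.5% ± 3.03 in the pull-downs, which overlapped. In the Cre+ pull-downs Prkar1b made up 19.4% to 38.3% and Prkar2a 17.6% to 36.4%. Shares are relative, so those of the other genes rise when Prkar1a falls. The mean levels per kilobase of these genes did not rise. Prkar1b had 80.5 ± 33.5 in the Cre+ pull-downs and 100.1 ± 4.88 in the Cre+ inputs, and Prkar2a 80.2 ± 26.65 and 83.1 ± 22.1. Prkar2b was a minor part, at 4.63% ± 0.749 of the pool in the Cre+ inputs and 4.69% ± 3.20 in the Cre+ pull-downs. In Cre- it was 4.98% ± 0.07 in the inputs and 2.46% ± 1.2 in the pull-downs, again without overlap.

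Prkaca supplied most of the catalytic pool in every library. Its share was 80.9% ± 5.11 in the Cre+ inputs, 72.2% ± 12.3 in the Cre+ pull-downs, 80.8% ± 1.93 in the Cre- inputs and 79.6% ± 5.13 in the Cre- pull-downs. The lowest share, 58.2%, was in Cre+ pull-down replicate 1. The ratio of summed regulatory to summed catalytic level was 1.75 to 2.50 in the Cre+ inputs, and 3.52, 1.74 and 1.45 in the Cre+ pull-downs, where replicate 1 stood apart. It was 1.57 to 2.13 in the Cre- inputs and 1.32 to 1.76 in the Cre- pull-downs.

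**Figure D4:**
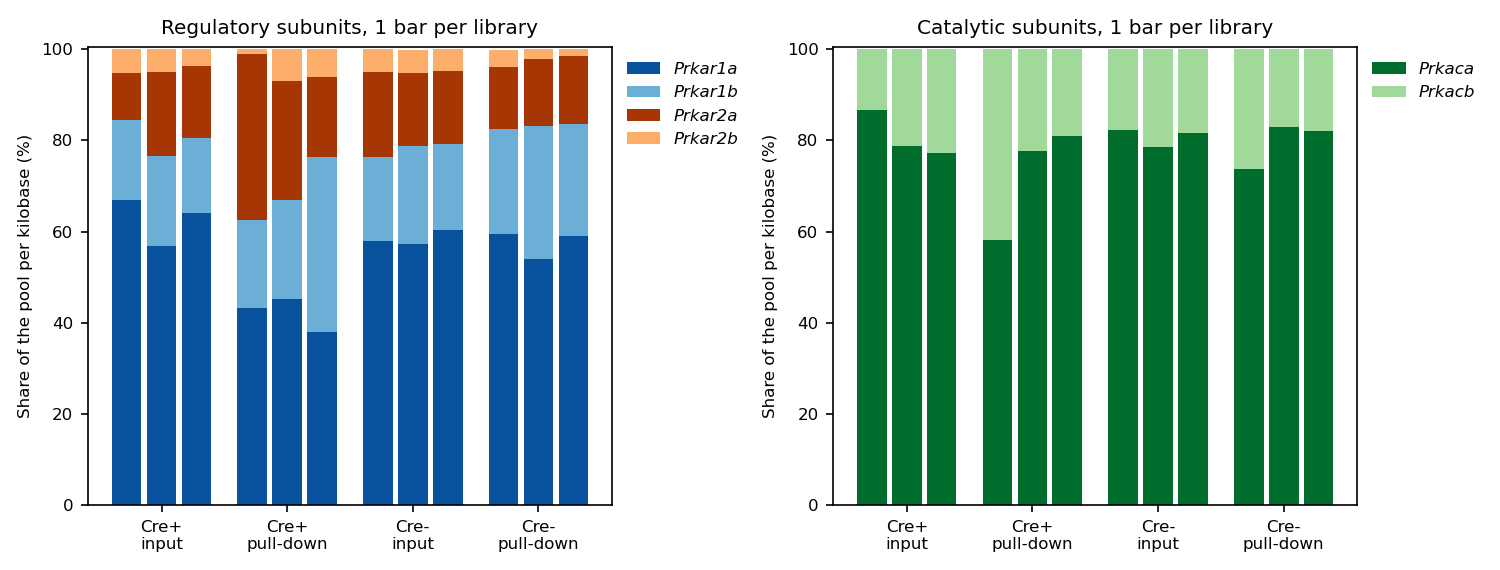
Share (%) of each gene in the summed level per kilobase of the regulatory (left) and catalytic (right) subunits, with 1 stacked bar per library and 3 libraries per group. Prkar1a makes up 38.0% to 45.3% of the regulatory pool in the Cre+ pull-downs and at least 54.0% in every other library.

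The subunits and the anchors differ in transcript length, and length moved with the pull-down in all genes. The 4 anchors have mean transcript lengths of 6063 (Akap12) to 13123 bases (Akap9) and the 6 subunits of 1838 (Prkaca) to 4102 bases (Prkacb). Among all genes with a length in Cre+, the median log2 fold change was -0.76 under 2 kb, -0.03 from 2 to 4 kb, 0.50 from 4 to 6 kb and 1.09 over 6 kb. In Cre- these medians were -0.36, -0.04, 0.18 and 0.45. Over 6 kb, 27.5% of genes were called higher in Cre+ and 17.7% in Cre-. Across the 10 genes, Spearman's correlation of length with log2 fold change was 0.842 in Cre+ and 0.576 in Cre-, beside 0.537 and 0.373 across all genes, a description over genes that share their libraries.

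Each gene was also set against genes of the same length class, which moved some of the 10 and left others near their place among all genes. In Cre+, Akap9 was at percentile 98.0 of the genes over 6 kb and Prkar1a at percentile 5.03 of those from 2 to 4 kb. Prkar1b, Prkar2a and Prkar2b stood at 35.8, 48.8 and 15.9 of their class and at 34.9, 44.9 and 18.4 of all genes. Akap6 (66.5) and Akap11 (44.2) were in the middle of their class, and Akap12 (18.4) was low in it. Prkaca, at percentile 18.4 of all genes, was at 45.1 of those under 2 kb, and Prkacb was at 13.4 of its class. In Cre-, Prkar2b was at percentile 5.97 of its class, Akap6 at 87.4, Akap9 at 78.6 and Akap11 at 75.3, while Akap12 was at 10.1. The part of length in these fold changes was not tested.

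**Figure D5:**
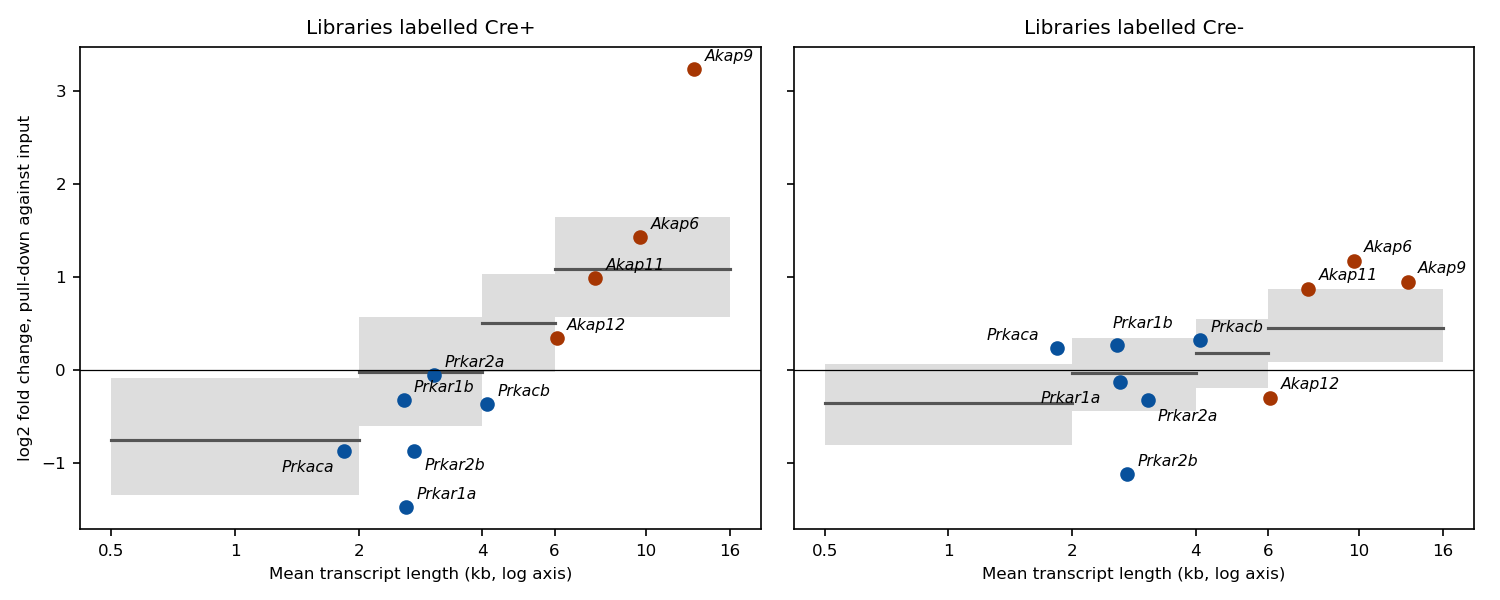
Log2 fold change between pull-down and input against mean transcript length (log axis, kb) for the anchors (brown) and subunits (blue). Grey boxes run from the lower to the upper quartile of all genes in 4 length classes and dark lines mark their medians, which rise from -0.76 to 1.09 in Cre+ and from -0.36 to 0.45 in Cre-. The outermost boxes stand for all genes under 2 kb and over 6 kb.

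Libraries also differed in the balance of long and short genes. The median deviation of genes over 6 kb from their mean over the 12 libraries, minus that of genes under 2 kb, was 1.37 (log2) in Cre+ pull-down replicate 1 and 0.92 and 0.96 in the other two. It was -1.52 in Cre+ input replicate 1 and -0.41 and -0.47 in the other two inputs. Among the Cre+ libraries, all 4 anchors were highest in that pull-down and lowest in that input. Prkaca, Prkar2b, Prkar1b and Prkacb were lowest in that pull-down. Prkar2a, with a mean transcript length of 3054 bases, was also highest in that pull-down and held its lowest input level in that input. Prkacb too held its lowest Cre+ input level there, whereas Prkaca and Prkar2b held their highest. Prkar1b differed little between that input and Cre+ input replicate 3. Prkar1b was highest in Cre+ pull-down replicate 3, where the measure was close to that of replicate 2. In Cre- the same measure was 0.12 to 0.32 in the pull-downs and -0.76 to -0.41 in the inputs. Cre- input replicate 1 (-0.76) held the lowest input level of all 4 anchors and also of Prkar1a, Prkar1b and Prkar2b. Prkaca held its highest Cre- input level there, and Prkar2a and Prkacb lay between the other Cre- inputs. RNA quality values were not analysed here.

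Markers of other cells also differed between these libraries. The summed normalized counts of the 3 endothelial markers were 381 in Cre+ pull-down replicate 1, 96.6 and 101.1 in the other two, and 46.1 to 82.3 in the Cre+ inputs. In Cre- they were 113 in pull-down replicate 1, 15.3 and 15.5 in the other two, and 58.5 to 88.1 in the inputs. The 2 macrophage markers tested of 5 summed to 112 in Cre+ pull-down replicate 1 and to 16.8 and 4.85 in the other Cre+ pull-downs. In the Cre+ inputs they summed to 25.8 to 68.2. In Cre- they summed to 55.5 in pull-down replicate 1, 23.9 and 26.05 in the others, and 35.3 to 117 in the inputs. Fibroblast markers summed to 66.9 to 76.5 in the Cre+ pull-downs and 61.5 to 95.4 in their inputs (4 of 6 tested). In Cre- (5 of 6 tested) they summed to 86.5 in pull-down replicate 1, 28.3 and 25.1 in the other two, and 75.9 to 94.7 in the inputs. That replicate thus stood above the other Cre- pull-downs for endothelial, macrophage and fibroblast markers. It also did for Prkar2b, Prkacb and Akap12 and, by small margins, for Akap6 and Akap9. Prkaca and Prkar1b were instead lowest in that replicate, as were Prkar2a and Akap11 by small margins. Prkar1a lay between the other Cre- pull-downs there. The 5 markers of satellite glia and Schwann cells tested of 8 summed to 540 to 624 in the Cre+ pull-downs and 797 to 866 in the Cre+ inputs, and those tested in Cre- (7 of 8) to 873 to 1191 in the pull-downs and 788 to 911 in the inputs. The 9 sensory neuron markers summed to 17530 to 19280 in the Cre+ pull-downs and 15190 to 17910 in their inputs, which overlapped, and to 33460 to 40990 in the Cre- pull-downs and 17810 to 20550 in their inputs. In edgeR 4 of the 9 had a positive log2 fold change in Cre+, the highest being Nefh with 0.56 (FDR = 0.184), and 2 were called lower there, namely Tubb3, a neuronal tubulin (log2 fold change -1.19, FDR = 0.0448), and Uchl1, a neuronal ubiquitin hydrolase (-1.85, FDR = 0.0342). In Cre-, 5 of the 9 were positive and 4 negative (median 0.14), and the neurofilament genes Nefm (1.29, FDR = 0.000142) and Nefh (1.35, FDR = 5.2e-05) were called higher. Most of the Cre- sum was neurofilament, with mean normalized counts of 15980 for Nefl and 17200 for Nefm in the pull-downs and 8596 and 7041 in the inputs. None of the endothelial, macrophage, fibroblast and glial markers tested was called in Cre+, and in Cre- the glial marker Fabp7 (-3.09, FDR = 0.0491) and the collagen gene Col1a1 (-1.34, FDR = 0.0347) were called lower. The part of these cells in the values of the 10 genes was not tested.

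Of 75 other genes of the pathway, listed by role and not by how they moved, 55 were tested in Cre+. Of these, 9 were called higher and 1 lower, beside 4.72% and 2.19% of all genes. The 6 with the smallest FDR are given, with changes on the log2 scale. Ep300, a histone acetyltransferase that serves as a CREB coactivator, had 302 ± 85.2 normalized counts in pull-downs and 88.6 ± 26.4 in inputs (log2 fold change 1.77, FDR = 0.0433). Gnal, the G protein alpha subunit that activates adenylyl cyclase in olfactory neurons, rose by 1.15 (FDR = 0.0448), and Adcy1, a calcium-sensitive adenylyl cyclase, by 2.05 (FDR = 0.056). The anchor Akap13 rose by 1.52 (FDR = 0.0609), Crebbp, the second CREB coactivator, by 1.30 (FDR = 0.0626), and Akap2 by 1.07 (FDR = 0.0747). Akap2 shares 84.4% of its exon bases with Pakap and Gnal 7.63% with the antisense gene Mppe1, so their counts are less certain. Apart from Gnal (2646 bases), these 6 genes have mean transcript lengths from 7014 (Akap2) to 12570 bases (Akap13), in the class over 6 kb. In that class 27.5% of all genes were called higher. The gene called lower was Acbd3, a Golgi protein that binds type I regulatory subunits, with 52.7 ± 9.57 in pull-downs and 118 ± 6.96 in inputs (log2 fold change -1.17, FDR = 0.0993). Each of these calls was lost without any 1 of the 3 Cre+ inputs.

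By role, 5 of 17 other anchors were called higher in Cre+ and 1 lower, with a median log2 fold change of 1.12, beside 4.72% and 2.19% of all genes. Of these 5, Akap2, Akap13 and Pcnt lie over 6 kb, where 27.5% of all genes were called higher, Synm between 4 and 6 kb (5.16%) and Akap8 between 2 and 4 kb (0.881%). Adenylyl cyclases had 1 of 5 called higher, G protein alpha subunits 1 of 6, and CREB family members and coactivators 2 of 9. None of the 12 phosphodiesterases, 3 kinase inhibitors and related kinases or 3 other cyclic AMP sensors was called.

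In Cre-, 58 of the 75 genes were tested, with 9 called higher and 5 lower, beside 6.01% and 5.83% of all genes. Sphkap, an anchor that binds type I subunits, had 67.4 ± 21.1 normalized counts in pull-downs and 11.6 ± 1.11 in inputs (log2 fold change 2.54, FDR = 0.00011). Synm, an intermediate filament protein that anchors the kinase, rose by 1.42 (FDR = 0.000404), the dendritic microtubule protein Map2 by 1.57 (FDR = 0.000465) and Myrip, which links the kinase to secretory vesicles, by 1.68 (FDR = 0.00266). Pde4d, which degrades cyclic AMP, rose by 1.31 (FDR = 0.000954) and Adcy1 by 1.28 (FDR = 0.00183). Of the genes that fell, Gnai2, an inhibitory G protein alpha subunit, changed by -1.30 (FDR = 0.000522) and Pkia, a peptide inhibitor of the catalytic subunits, by -1.34 (FDR = 0.000694). The membrane cyclic AMP sensors Popdc3 and Bves changed by -1.97 (FDR = 0.0024) and -1.98 (FDR = 0.00786), and Atf1, a CREB relative, by -1.06 (FDR = 0.0302). By role, 5 of 18 other anchors were called higher in Cre- and 0 lower, with a median log2 fold change of 0.54, and 2 of 6 adenylyl cyclases and 2 of 11 phosphodiesterases were called higher. Of the 3 other cyclic AMP sensors, 2 were called lower. The 5 genes that fell have mean transcript lengths of 1471 (Gnai2) to 4368 bases (Bves). Of the 9 called higher, Sphkap, Adcy1 and Adcy8 lie over 6 kb, where 17.7% of all genes were called higher. Map2, Synm and Myrip lie between 4 and 6 kb (8.74%), and Pde4d, Akap10 and Pde4a between 2 and 4 kb (5%).

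The difference of both enrichments was called for 6 of the 54 genes tested, 5 higher and 1 lower, beside 2.33% and 2.03% of all genes. Acbd3 had the smallest FDR, with a difference of -1.54 (FDR = 0.0362), from log2 fold changes of -1.17 in Cre+ and 0.41 in Cre-, the latter not called (FDR = 0.114). Akap13 differed by 1.44 (FDR = 0.0784), Ep300 by 1.44 (FDR = 0.085) and Gnal by 1.11 (FDR = 0.0689). Prkx, a kinase closely related to the catalytic subunits, differed by 1.26 (FDR = 0.0968) and Gnai2 by 1.08 (FDR = 0.0999). Without any 1 of the Cre- inputs, none of the 6 was called, and with a replicate block by column number only Acbd3 was. The sign of these differences follows the labels, which the Runx3 values go against. None of the 54 genes was called between the inputs.

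The genes whose log2 levels followed a member most closely were sought over the 12 libraries among 8830 genes. With Prkar1a these were Phospho2 (Pearson r = 0.975), the kinetochore gene Zwint (0.962), the chaperones Hspa8 (0.958) and Tcp1 (0.955) and the translation release factor Etf1 (0.955). With Akap9 they were the axonal scaffold Ank3 (0.985), the DNA demethylation enzyme Tet2 (0.984), Ylpm1 (0.983), the spectrin Sptbn1 (0.979) and Prr14l (0.978). These values describe 12 libraries in 4 groups and carry the differences between the groups.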

How the data were processed

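Ribosome-bound RNA and input RNA of cultured DRG neurons were sequenced in 12 libraries, 3 in each of 4 groups. Per the study's methods, the authors aligned reads with STAR to mm10 and counted uniquely mapped fragments per refSeq gene with HTSeq, giving the deposited raw counts. The processing notes name CASAVA 1.8.2 and edgeR. Strand use in counting is not given in the sources used here. The labels and the methods name different library kits. The authors also deposited a mean FPKM per gene and table, used here only as a filter (above 1, which 8947, 11526 and, for comparisons over both tables, 8954 genes passed). Their own fold changes, p-values, per-library ratios and normalized counts (9 per-library columns in each table) were not used. Both tables were fitted with counts as deposited. The columns of the libraries labelled Cre+ carry numbers that could not be tied to single samples, so those numbers only name libraries.

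Counts were tested with edgeR 4.0.16 in R 4.3.3 (trimmed mean of M-values, robust dispersions, quasi-likelihood test, two-sided, Benjamini-Hochberg FDR over all genes tested). A call needs an FDR below 0.1 and a 2-fold change, and standard errors of log2 changes follow from the test statistic. The difference of both enrichments and the inputs were fitted over both tables, the former on all 12 libraries. Log2 levels used a prior count of 2. Positions and lengths come from GENCODE M21 on GRCm38, the same assembly as mm10, and lengths were found for 97.6% and 96.5% of the genes tested in Cre+ and Cre-. On simulated data with 200 changed genes, 45% of 4-fold and 72% of 8-fold changes were called in Cre+, and 93% and 100% in Cre-.

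Depth was 8886308 to 18633365 counts per library. The labels do not say that libraries of a group came from separate cultures beyond the pooling of 5 mice per sample, and p-values then measure the spread between these samples. The members and gene lists were chosen with earlier results of these data known. The text names all members, Runx3, other marker genes, and the 5 genes most correlated with Prkar1a and with Akap9. Changes are given for up to 6 called pathway genes per contrast and direction by FDR. The remaining called pathway genes are named with their length class. Alternatives were DESeq2 1.42.0, scaling by library size alone, other filters on low counts, other transcript lengths, a replicate block and leaving out each library. The union of exons as length, and a block by column number for the comparisons with Cre+ libraries, were chosen after seeing the data.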

Additional observations from a re-analysis of the deposited data

Results flagged for a closer look

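Prkacb had every Cre+ pull-down below every Cre+ input and every Cre- pull-down above every Cre- input, with a difference of both enrichments of -0.65 on the log2 scale. Since the gene was chosen on these contrasts, the value is a description and no test of it is given.

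By the test of the difference itself, the enrichment of 6 other pathway genes differed between the libraries labelled Cre+ and Cre-, with 3 libraries per group. In edgeR's quasi-likelihood test the difference was 1.44 for Akap13 (FDR = 0.0784), -1.54 for Acbd3 (FDR = 0.0362), 1.26 for Prkx (FDR = 0.0968), 1.11 for Gnal (FDR = 0.0689), 1.08 for Gnai2 (FDR = 0.0999) and 1.44 for Ep300 (FDR = 0.085). Without any 1 of the 3 Cre- inputs, none of the 6 was called, and with a replicate block by column number only Acbd3 was. The directions follow the labels, which the levels of Runx3 go against.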

How the results depend on the processing

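No member reversed a called direction under any setting run. In Cre+, DESeq2 called 1103 genes higher and 568 lower, with 3 members higher and 1 lower. Scaling by library size alone gave 192 and 699 there, with 1 member higher and 1 lower. In Cre-, library size gave 429 higher and 1238 lower, with 0 members higher. For the difference, DESeq2 gave 612 higher and 428 lower, and library size 72 and 275. For the inputs, DESeq2 called 1 gene higher. Library size scaling moved the median log2 fold change of all genes from 0.08 to -0.36 in Cre+, from -0.04 to -0.27 in Cre- and from 0.13 to -0.11 for the difference, so that members shift down with it. The cause of the gap between the tools was not tested.

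Without 1 library each, the Cre+ fits called 4 to 803 genes higher and 0 to 540 lower, with 0 to 3 members higher and 0 to 1 lower. The fewest calls came without Cre+ input replicate 3 (4 higher) and replicate 1 (7 higher), and the most without Cre+ pull-down replicate 1. The Cre- fits called 0 to 2 members higher and 0 to 1 lower, and 525 to 1060 genes lower. For the difference, 13 to 713 genes were called higher and 30 to 694 lower, with 0 to 1 members higher and 0 to 2 lower.

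In Cre- the replicate numbers gave correlations of deviations of 0.07, 0.03 and 0.12 between same-numbered pull-down and input, and -0.11 to 0.02 between the others. Each same-numbered value was the higher, a hint from the data, but not all were over 0.1 and the labels do not tie the numbers to shared lysates, so the libraries were not treated as paired. With a replicate block, 704 genes were called higher and 792 lower in Cre- (693 and 672 without it), and 1 member in each direction in both fits. The numbers of the Cre+ columns are not tied to single samples. A replicate block by these numbers, chosen after seeing the data, called 212 genes higher and 49 lower in Cre+ and 51 and 64 for the difference (0 members higher), with 5 other pathway genes higher in Cre+ and 0 for the difference. For the inputs it called 0. Correlations of same-numbered deviations in Cre+ were -0.01, -0.00339 and 0.00896, and these libraries were not treated as paired either. With the longest transcript as length, the level of Prkar1a in the Cre+ inputs was 261 per kilobase in place of 352, and Prkar1a stayed second to Akap12 there. Depth limits Prkar2b most, with 73 counts in Cre+ pull-down replicate 1.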
